A study of Homo sapiens with 12 samples.

Results

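The deposited tables hold 6561 loci that the authors assembled from their own reads and named Homo_sapiens_newGene_ with a number, out of 26535 features in all (24.73%). Every row with such a name was taken, and no measured value entered that choice. The set itself rests on the authors' reads, since the loci were assembled from them. The highest number in a name is 12769, so not every number has a row. The other 19974 features carry an Ensembl gene ID. RNA was sequenced from A549 cells, an established lung adenocarcinoma line grown in DMEM/F12, and from H1299 cells, an established non-small-cell lung cancer line grown in RPMI-1640, both with fetal bovine serum and antibiotics. Cells of each line carried either a VGF overexpression lentivirus or the empty vector, which gives 4 groups of 3 libraries that the design text calls biologically independent. The labels give the genotype as WT with empty vector and VGF-OE with VGF, and whether the transduced cells were pools or clones is not stated. Groups were taken from titles and characteristics, since the free-text treatment field names the empty vector for all 12 libraries. The medium differs with the line, so the effect of the line and that of the medium cannot be told apart.

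Transcript assembly joins reads that lie outside the annotated gene models into new transcription units. Such units are known to include long noncoding RNAs, antisense and read-through transcripts, transcripts started in repeats or at enhancers, and unknown first or last exons of known genes. Long noncoding transcripts are known for low levels and for strong restriction to a cell type. VGF, the overexpressed gene, encodes a secreted precursor protein of neuroendocrine cells.

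The word unannotated needs a limit here. Of the 19974 Ensembl features, 19922 are protein-coding genes by the GENCODE release 29 annotation, 41 are polymorphic pseudogenes and the rest are immunoglobulin or T-cell receptor segments. No feature of a long noncoding type is among them, and 0 of 12 well-known long noncoding RNAs that were looked for, MALAT1, NEAT1, H19 and GAS5 among them, carry a row of their own. The loci may therefore include known noncoding genes, which these tables cannot show because they give each locus neither a name nor a position. The loci are called newly assembled loci below. Since the tables used here give no position and no sequence for the loci, none is printed.

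Library totals ran from 31378171 to 41919484 counts. VGF had 94, 85 and 67 counts in the A549 libraries with empty vector and 39803, 46973 and 44733 in those with VGF. In H1299 it had 3465, 3989 and 3662 counts with empty vector and 35974, 37510 and 47251 with VGF, so all libraries matched their vector label. CDH1, the adherens junction protein of epithelia, had 2653 to 3190 counts in A549 libraries and 0 in every H1299 library. KRT8, an epithelial keratin, was present in both lines, at 18157 to 22028 counts in H1299 libraries and 120606 to 147299 in those of A549. Levels of EPCAM, another epithelial marker, were at most 36 counts in every library. 2 libraries stood apart. In A549 with VGF, library 2 held 15 of 15 endothelial markers at their highest level of all 12 libraries, with a summed level of 525.7 CPM (counts scaled to 1000000 of the library total) against 72.62 to 87.06 in the other A549 libraries and 27.3 to 33.31 in H1299. PECAM1, an endothelial adhesion receptor, had 3305 counts there and 19 to 61 in the other A549 libraries. Fibroblast markers (23.55 CPM against 22.2 to 26.79) and leukocyte markers (15.2 CPM against 16.19 to 18.63) were not raised in sum, though DCN of the fibroblast list and LST1 of the leukocyte list had 10 and 13 counts in library 2 and 0 in the other A549 libraries. In H1299 with empty vector, library 3 held a run of 5 loci at high level, described below.

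The newly assembled loci made up 1.55 to 2.15% of the counts of a library. In A549 their share was 1.697, 1.642 and 1.725% with empty vector and 1.737, 1.583 and 1.551% with VGF. In H1299 it was 1.914, 1.855 and 2.146% with empty vector and 1.890, 1.825 and 1.806% with VGF. Every H1299 library was above every A549 library. The mean share was 1.906% in H1299 and 1.656% in A549, a difference of 0.250 percentage points (p = 0.005, exact two-sided permutation test of the line labels within each vector, 0.015 after Benjamini-Hochberg adjustment over the 3 tests of the share). This p is the smallest that the 400 arrangements allow. The difference lay between 0.202 and 0.270 points when 1 library at a time was left out, and it was 0.236 without A549 VGF library 2. These shares are of the library total and were not rescaled between libraries. The scaling factors of the edgeR fit (TMM) were 0.9192 to 0.9395 in A549 and 1.06 to 1.088 in H1299. Dividing by them lowers H1299 values relative to those of A549, and the line difference was not tested on that scale.

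The share did not differ between the vectors by the test in either line, which does not show that it was equal. In A549 the mean was 1.69% ± 0.0420 with empty vector and 1.62% ± 0.0996 with VGF (SD, n = 3), a difference of -0.0641 points (p = 0.4, exact two-sided permutation test, adjusted 0.4). Without A549 VGF library 2 that difference was -0.0439 points, without library 1 it was -0.121 (p = 0.1, exact permutation test, the smallest possible) and without library 3 it was -0.0276. In H1299 the mean was 1.97% ± 0.154 with empty vector and 1.84% ± 0.0442 with VGF (SD, n = 3), a difference of -0.131 points (p = 0.2, exact two-sided permutation test, adjusted 0.3). Without the run of 5 loci the H1299 difference was -0.0650 points and without empty-vector library 3 it was -0.0438. With 3 libraries against 3 the exact permutation test cannot go below p = 0.1.

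**Figure D1:**
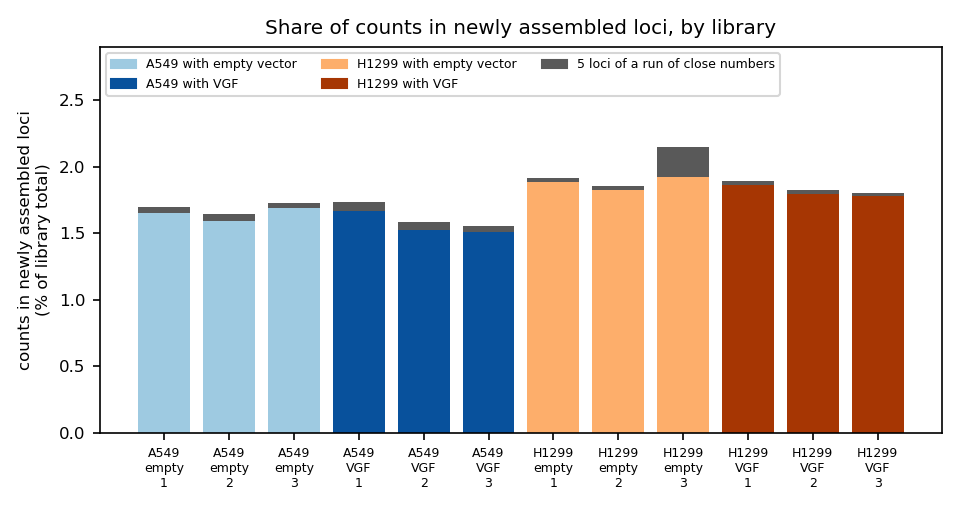
Counts in newly assembled loci as a percentage of the library total (bars from 0), for the 12 libraries by group and replicate number. The grey part is the run of 5 loci (Homo_sapiens_newGene_3981, 3982, 3983, 3986 and 3995), without which, in numerator and total, H1299 empty-vector library 3 is at 1.929% in place of 2.146%. All 6 H1299 bars are higher than all 6 A549 bars.

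A small number of loci carried much of this signal. The most abundant locus held 5.495% of all counts in newly assembled loci in A549 and 8.383% in H1299. The 20 most abundant held 30.59% in A549 and 27.36% in H1299, and the 100 most abundant 54.86% and 50.55%. The line difference in the share was 0.145 points without the most abundant locus (p = 0.025, exact two-sided permutation test) and 0.255 points without the 20 most abundant (p = 0.005, exact two-sided permutation test). At the other end, 2166 loci (33.01%) had fewer than 10 counts in every library, against 20.55% of protein-coding genes. Every locus had at least 1 count in some library, which assembly from the authors' own reads favours.

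An expressed locus was defined as one with at least 0.5 CPM in at least 3 of the 6 libraries of a line. By this rule 1870 loci (28.5%) were expressed in A549 and 2052 (31.28%) in H1299, and 3902 in neither line. In A549 alone 607 were expressed, in H1299 alone 789, and in both 1263. Of the 2659 loci expressed in at least 1 line, 47.5% were expressed in both. The same share was 84.25% for protein-coding genes, 11931 of 14161. Leaving out A549 libraries one at a time, library 2 with VGF included, left 1775 to 1801 loci expressed in A549, and 1962 to 1995 remained above the minimum in H1299 in the same check. With library totals rescaled by the TMM factors of the edgeR fit, 1909 loci were expressed in A549 and 1984 in H1299, a smaller gap.

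The 2 classes also differed in level, so the difference between the lines is given within ranges of level too. It is measured there as a 10-fold difference and not as expression in both lines. The median level of expressed loci was 1.303 CPM and that of expressed protein-coding genes 26.9 CPM. Among features of 0.5 to 1 CPM in the line where they were higher, 35.52% of 718 loci and 36.3% of 752 protein-coding genes differed at least 10-fold between the lines. Between 2 and 5 CPM the shares were 36.53% and 31.81%, and between 5 and 20 CPM they were 33.27% and 21.62%. From 20 to 2000 CPM, 28.85% of 260 loci and 7.675% of 8925 protein-coding genes differed at least 10-fold. That last range is wide, and the 2 classes may lie at different levels within it. Across the levels the share ran from 28.85 to 36.53% for the loci and from 7.675 to 36.3% for protein-coding genes, where it was lower at each higher level. These shares describe the 2 classes in these lines and were not tested, because features of a library are not independent replicates.

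The loci were shorter than protein-coding genes. A length was read from the ratio of a feature's count to its FPKM, the authors' value per length and library size, which gives an estimate of the length the authors used. For expressed loci the median implied length was 1755 bases, and for expressed protein-coding genes 3237 bases. Over all 4395 loci with at least 10 counts in a library the median was 1175 bases, with quartiles of 746.6 and 2146. For 15835 Ensembl features the implied length was at the median 0.7414 of the annotated exon length (quartiles 0.5351 and 0.9395), so it is a rough measure. Per length, the median FPKM was 0.7566 for expressed loci and 8.032 for expressed protein-coding genes. At equal counts the replicates of a group spread similarly in both classes at low counts and more for the loci at high counts. Between 30 and 100 counts the median SD of log2(CPM + 0.05) was 0.340 to 0.353 for loci across the 4 groups and 0.338 to 0.386 for protein-coding genes. Between 300 and 1000 counts it was 0.126 to 0.142 for loci and 0.111 to 0.120 for protein-coding genes. Between 1000 and 3000 counts it was 0.0797 to 0.113 for loci and 0.0715 to 0.0812 for protein-coding genes.

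**Figure D2:**
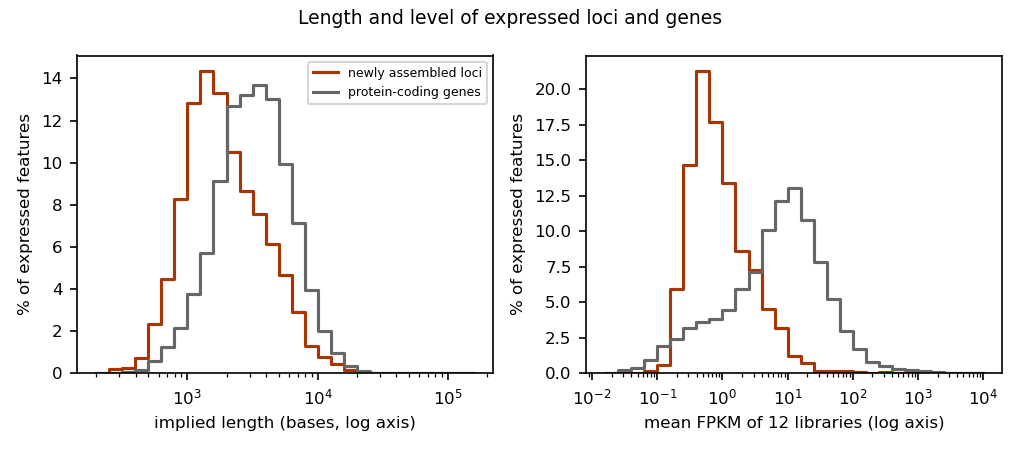
Implied length in bases (left, log axis) and mean FPKM over 12 libraries (right, log axis) of expressed features, as the percentage of each class per bin. Newly assembled loci lie at shorter lengths (median 1755 against 3237 bases) and lower FPKM (median 0.7566 against 8.032) than protein-coding genes.

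The 3 most abundant loci of each line were expressed in both lines. Homo_sapiens_newGene_11240, with an implied length of 16260 bases, was the most abundant in A549, with 39700, 31692 and 37727 counts with empty vector and 30865, 31317 and 27827 with VGF. In H1299 it had 20071, 18637 and 19679 counts with empty vector and 17216, 15028 and 15571 with VGF. Its level was 1007 ± 112 CPM in A549 and 484 ± 36.1 CPM in H1299 (SD, n = 3, empty vector), and the log2 fold change was -1.26 (SE 0.109, adjusted p = 2.01e-07, edgeR quasi-likelihood test). The lines did not overlap.

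Homo_sapiens_newGene_9898, with an implied length of 1796 bases, was the most abundant locus in H1299. It had 64915, 67217 and 59316 counts there with empty vector and 61848, 62584 and 60164 with VGF. In A549 it had 19689, 19614 and 19351 counts with empty vector and 16338, 22022 and 19176 with VGF. The level was 1584 ± 28.1 CPM in H1299 and 541 ± 6.60 CPM in A549 (SD, n = 3, empty vector), which is 1.34 higher on the log2 scale in the fit (SE 0.0407, adjusted p = 6.74e-12, edgeR). Per length it reached 880.1 FPKM in H1299, while Homo_sapiens_newGene_11240 reached 62.06 FPKM in A549.

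Homo_sapiens_newGene_11252, with an implied length of 7251 bases, had 29500, 25516 and 27272 counts in H1299 and 19872, 17443 and 22451 in A549 with empty vector. That is 682 ± 59.7 and 552 ± 76.3 CPM (SD, n = 3), and the difference did not pass the test (log2 fold change 0.10, SE 0.132, adjusted p = 0.508, edgeR). In the VGF libraries the same locus was higher in H1299, with 28407, 24696 and 26745 counts against 16003, 17929 and 12277 in A549 (log2 fold change 0.52, adjusted p = 0.00298, edgeR). The difference between the 2 line contrasts did not pass the test (0.42, SE 0.187, adjusted p = 0.431, edgeR).

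Homo_sapiens_newGene_4372, with an implied length of 997.7 bases, was second in A549 and far lower, though expressed, in H1299. It had 30937, 29904 and 25944 counts in A549 with empty vector and 21934, 30001 and 29999 with VGF. In H1299 it had 115, 177 and 75 counts with empty vector and 66, 93 and 79 with VGF. This is 804 ± 60.7 FPKM in A549 and 2.99 ± 1.18 FPKM in H1299 (SD, n = 3, empty vector), and the fit gave -8.25 on the log2 scale (SE 0.191, adjusted p = 6.28e-13, edgeR). It was the locus with the largest difference towards A549 among those expressed in both lines. The second was Homo_sapiens_newGene_10596, with 4295, 4167 and 4343 counts in A549 and 13, 33 and 22 in H1299 with empty vector (log2 fold change -7.91, SE 0.172, adjusted p = 3.86e-13, edgeR).

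In the other direction, Homo_sapiens_newGene_4165 had 2862, 2824 and 2419 counts in H1299 and 13, 37 and 31 in A549 with empty vector (log2 fold change 6.27, SE 0.184, adjusted p = 5.09e-12, edgeR). Homo_sapiens_newGene_9450 had 4470, 4059 and 4069 counts in H1299 and 51, 42 and 35 in A549 (log2 fold change 6.26, SE 0.0858, adjusted p = 1.58e-14, edgeR). In each of these 4 loci the lines did not overlap. In A549 with empty vector the replicates of Homo_sapiens_newGene_4165 spread widely for their level, at 0.751 ± 0.353 CPM (SD, n = 3). Those of Homo_sapiens_newGene_9450 spread less, at 1.18 ± 0.198 CPM (SD, n = 3). The VGF libraries showed log2 fold changes of -8.68, -7.74, 6.07 and 5.60 for Homo_sapiens_newGene_4372, Homo_sapiens_newGene_10596, Homo_sapiens_newGene_4165 and Homo_sapiens_newGene_9450.

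A filter on low counts left 3363 loci for the test, and 3198 were not tested. Between the lines with empty vector, 1168 loci were higher in H1299 and 1014 lower, of a background of 38.5% of all 18228 tested features called higher and 38.6% called lower (77.2% in either direction, edgeR, adjusted p under 0.05). The loci called made up 64.88% of those tested, below that background, and 79.95% of tested Ensembl features were called. The median log2 fold change, H1299 minus A549, was 0.19 over the tested loci and 0.01 over all tested features. The median absolute log2 fold change was 3.82 for called loci and 1.06 for called Ensembl features, and 57.29% of called loci differed by over 8-fold against 21.78% of called Ensembl features. Features of low count need a larger fold to be called, and the loci were at lower levels, so these values describe the calls and do not compare the classes.

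In the VGF libraries 1191 loci were higher in H1299 and 1035 lower, or 66.19% of those tested, beside a background of 38.2% higher and 39.1% lower (77.3% in either direction). Of the loci called with empty vector, 1041 were called higher and 905 lower again with VGF, 0 were called in the opposite direction and 21 had the opposite sign without a call. The libraries of the 2 contrasts are different, though all 12 share 1 estimate of the spread. With upper-quartile scaling the median of all features moved by 0.11 on the log2 scale, and 1238 loci were then called higher and 975 lower with empty vector.

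Loci restricted to a line had at least 0.5 CPM in all 3 empty-vector libraries of that line and at most 3 counts over the 3 of the other line. By this rule 184 of the 6561 loci were restricted to A549 and 295 to H1299, beside 1.8% and 2.48% of all 26535 features. Of the 19922 protein-coding genes, 292 and 362 met the same rule. The restricted loci held 5.631% of the counts in newly assembled loci in A549 and 9.078% in H1299, with median levels of 1.746 and 2.518 CPM. The VGF libraries, which the rule did not use, met the same rule for 137 of the 184 (74.46%) and 227 of the 295 (76.95%). Their mean stayed higher in the line of origin for 183 of 184 and 295 of 295. No count at all was seen in the 6 libraries of the other line for 123 of the A549 loci and 225 of the H1299 loci. In bulk RNA, a lower share of cells that use a locus and less RNA per cell cannot be told apart.

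**Figure D3:**
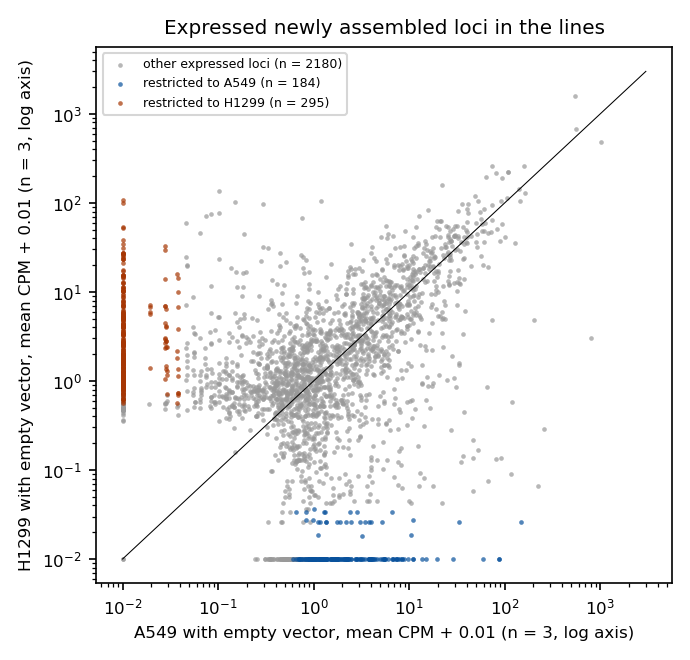
Mean CPM + 0.01 of each expressed newly assembled locus in A549 (x) and H1299 (y) with empty vector, 3 libraries each, on log axes, with the line of equal level. Points at 0.01 have no count in the 3 empty-vector libraries of that line. Of the 184 loci restricted to A549, 155 lie at 0.01 for H1299, and of the 295 restricted to H1299, 254 lie at 0.01 for A549; the others, with at most 3 counts, lie close by.

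Among the loci restricted to A549, Homo_sapiens_newGene_5058 was the most abundant. It had 5270, 4797 and 5896 counts with empty vector and 5344, 6135 and 5364 with VGF, against 0, 2 and 0 and then 0, 0 and 0 in H1299. The ratio of its pooled level with empty vector was 8898 (95% counting interval 2463 to 73480), a ratio to 2 counts and not a bound like those that follow. Homo_sapiens_newGene_6720 had 3196, 3045 and 3271 counts with empty vector in A549 and no count in H1299, at least 3535-fold higher when the H1299 group is set at a floor of 3 counts over its 3 libraries. Homo_sapiens_newGene_6131 had 3476, 3072 and 2882 counts and was at least 3504-fold higher by the same floor. With VGF, the H1299 libraries held 3, 0 and 0 counts of this locus. The ratio there was 2959 (95% counting interval 1012 to 14350), again not a bound. Homo_sapiens_newGene_7346 had 1895, 1979 and 2468 counts and was at least 2357-fold higher. These 4 were well measured in every A549 library, VGF or not.

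Among the loci restricted to H1299, Homo_sapiens_newGene_2907 had 4606, 4179 and 4248 counts with empty vector and 4164, 3862 and 4054 with VGF, and no count in any A549 library. It was at least 3897-fold higher in H1299 with empty vector. Homo_sapiens_newGene_8664 had 4198, 3717 and 4089 counts and was at least 3589-fold higher. The counts of Homo_sapiens_newGene_10522 were 2220, 2047 and 2180, at least 1928-fold higher, and those of Homo_sapiens_newGene_4224 were 2289, 2064 and 1943, at least 1883-fold higher. All 4 had 0 counts in all 6 A549 libraries, A549 VGF library 2 included. Intervals, here and below, cover counting error only. The bounds set the group without counts at the floor and take the counts of the other group as exact.

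A549 VGF library 2 held more counts of H1299-restricted loci than the other A549 libraries. There, 37 of the 295 loci had a count, for 303 counts in all, and 9 had 10 or more. In A549 VGF libraries 1 and 3 the numbers were 20 and 16 loci with 109 and 99 counts, and 3 loci in each had 10 or more. When the rule was applied to the VGF libraries without library 2, it gave 242 loci for A549 and 311 for H1299, against 220 and 272 with it. The rule is looser with fewer libraries: leaving out any 1 empty-vector library also raised the counts made on those, to 199 to 208 and 315 to 325. Of the loci restricted with empty vector, 143 and 249 were then found again. The same library alone held 26 loci with at least 10 counts and 0 in the other 5 A549 libraries, where each of the others held 5 to 11 such loci. Among Ensembl features the same count was 113 in library 2 and 2 to 14 in the others.

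Of those 26 loci, 15 had no count in any H1299 library and 5 were expressed in H1299, and they summed to 579 counts. Homo_sapiens_newGene_8363 had 133 counts in A549 VGF library 2 and 0 in the other 11 libraries. Homo_sapiens_newGene_2342 had 42 counts there, 0 in the other 5 A549 libraries and 96 to 186 counts in each H1299 library. The endothelial markers given above were highest in the same library, and their part in these counts was not tested.

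Some restricted loci had neighbouring numbers. What the number stands for is not given in the sources used here. Among pairs of expressed loci whose numbers differ by at most 2, the next locus was also restricted to A549 for 18 of 57 A549-restricted loci (31.58%), where 6.121% of the next loci of all 1062 pairs were so restricted. For H1299 it was 52 of 125 (41.6%), against 10.64% of all pairs. Whether loci with close numbers are separate transcription units was not tested.

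A departure of 1 library from its group also fell on a run of close numbers. Homo_sapiens_newGene_3981, Homo_sapiens_newGene_3982, Homo_sapiens_newGene_3983, Homo_sapiens_newGene_3986 and Homo_sapiens_newGene_3995, chosen after their values were seen, had 19014, 17392, 17622, 19920 and 9648 counts in H1299 empty-vector library 3. The other 4 loci in that number range had at most 13 counts in that library and at most 25 in any library. In libraries 1 and 2 of the group Homo_sapiens_newGene_3981 had 2888 and 3750 counts and Homo_sapiens_newGene_3995 had 1168 and 1470. Summed over the 5 loci, library 3 held 2211 CPM and libraries 1 and 2 held 264.7 and 326.8 CPM, a ratio of 7.477 to their mean. For the single loci the ratio ran from 6.29 to 8.03. The 3 H1299 VGF libraries held 230.7 to 285.1 CPM, and the A549 libraries 376.3 to 726.1 CPM. The 5 loci made up 10.3% of the counts in newly assembled loci of library 3. None was called for VGF in H1299 (adjusted p from 0.477 to 0.511, edgeR).

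**Figure D4:**
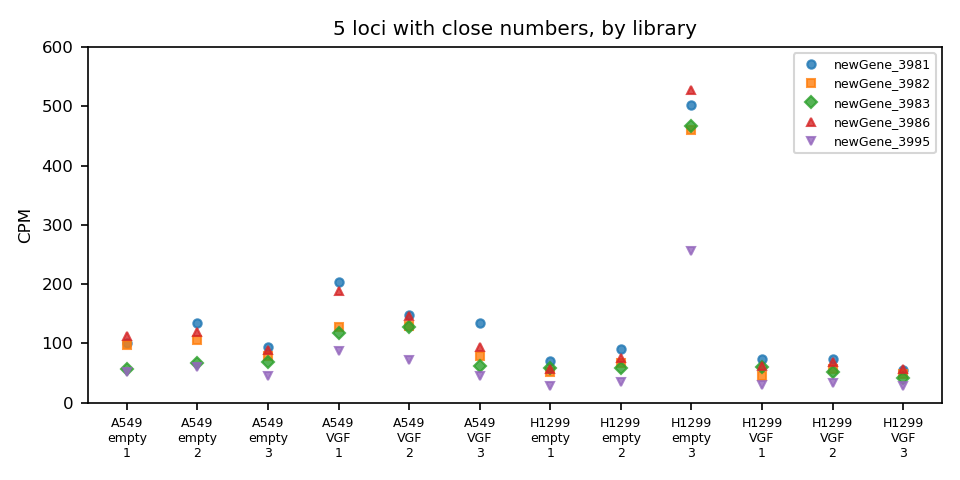
CPM of Homo_sapiens_newGene_3981, 3982, 3983, 3986 and 3995 in the 12 libraries by group and replicate number; the other 4 loci in that number range, at no more than 25 counts in a library, are not drawn. All 5 points of H1299 empty-vector library 3, from 255.2 to 526.9 CPM, are above the points of every other library.

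Few newly assembled loci were called for VGF in A549, which does not show that few changed. In this line 3 loci rose and 8 fell among 3363 tested (0.327%; edgeR, adjusted p under 0.05), where the background over all tested features was 0.406% higher and 0.384% lower (0.79% in either direction) and 0.895% of Ensembl features were called. The unadjusted p was under 0.05 for 242 loci (7.196%), against 13.87% of all tested features. DESeq2 called 50 loci beside a background of 4.02%, with all 11 among them, and limma voom called 24 beside 1.83%, with 7 of the 11. Without A549 VGF library 2, 4 loci were called, each lower with VGF (background 0.241% lower, 0.514% in either direction), and 2 of these were among the 11. The unadjusted p was under 0.05 for 234 loci in that fit. Over the 1870 loci expressed in A549 the median log2 fold change was -0.04, and 0.01 over expressed Ensembl features. Without library 2 it was -0.02 over the loci. In data simulated for this comparison, the fit recovered 28% of 2-fold and 87% of 4-fold changes, set in loci of higher count.

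Homo_sapiens_newGene_12328 fell in A549 from 18, 21 and 29 counts with empty vector to 0, 0 and 0 with VGF (adjusted p = 0.00166, edgeR). Against a floor of 3 counts over the VGF group it was at least 23.2-fold lower. It remained called in each of the 12 fits that left out 1 library, with an adjusted p of 0.00283 to 0.00765, and was the single locus of the 11 to do so. In H1299 it had 110, 81 and 133 counts with empty vector and 103, 63 and 92 with VGF, and these overlap (log2 fold change -0.26, SE 0.336, adjusted p = 0.973, edgeR).

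Homo_sapiens_newGene_2322 fell from 38, 39 and 66 counts to 0, 0 and 0 in A549, at least 48.9-fold lower (adjusted p = 0.0374, edgeR), and had no count in H1299. The call was lost without any 1 of the 6 A549 libraries, A549 VGF library 2 among them (adjusted p = 0.0694, and up to 0.124, edgeR). Homo_sapiens_newGene_7881 fell from 82, 78 and 63 counts to 0, 3 and 0, a ratio of 76.2 (95% counting interval 25.7 to 372, adjusted p = 0.0312, edgeR), and also had no count in H1299. Its 3 counts were all in A549 VGF library 2, and without that library it was called with an adjusted p of 0.0280 (edgeR), while the call was lost without any 1 of the other 5 A549 libraries (up to 0.120). Both loci belong to those restricted to A549 by the empty-vector libraries.

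Homo_sapiens_newGene_2734 fell from 25, 37 and 30 counts to 0, 2 and 5 (log2 fold change -3.70, SE 0.703, adjusted p = 0.0356, edgeR), and was not called without A549 VGF library 2 (adjusted p = 0.0988, edgeR). The call was also lost without any empty-vector library of A549, A549 VGF library 1, or H1299 empty-vector library 1 or 2, with an adjusted p of at most 0.0999 (edgeR). In H1299 it had 112, 100 and 175 counts with empty vector and 42, 123 and 55 with VGF. The H1299 groups overlap, and the 2 effects did not differ by the test (2.96, SE 0.872, adjusted p = 0.263, edgeR).

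The largest rise was of Homo_sapiens_newGene_11109, which had 0 counts in all empty-vector libraries of A549 and 34, 47 and 25 with VGF, at least 34.5-fold higher (adjusted p = 0.0488, edgeR). It had no count in any H1299 library. Leaving out any 1 of the 12 libraries ended the call, with adjusted p from 0.0566 to 0.131 (edgeR). A fit with fewer libraries also has less power.

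The other 6 called loci lie outside the rule for named loci and were named because they are few. Homo_sapiens_newGene_2205 fell from 153, 97 and 115 to 35, 51 and 57 counts (log2 fold change -1.38, SE 0.262). Homo_sapiens_newGene_8044 went from 994, 990 and 911 to 641, 851 and 782 counts, and its level fell by 0.38 on the log2 scale. The level of Homo_sapiens_newGene_80, with 5318, 5059 and 5113 counts and then 3357, 4765 and 4553, fell by 0.32 on the log2 scale. The other 3 had a mean under 0.5 CPM in both A549 groups, and they did not pass the filter on low counts when A549 was fitted alone. Homo_sapiens_newGene_10020 had 9, 2 and 8 counts and then none, while H1299 libraries held 1630 to 1860. Homo_sapiens_newGene_6754 had none and then 3, 8 and 3 counts, and 227 to 454 in H1299. Homo_sapiens_newGene_10724 had none and then 3, 22 and 22. Without A549 VGF library 2 none of these 6 was called (adjusted p from 0.0882 to 0.0994, edgeR), while the 3 with more counts had log2 fold changes close to those above, of -1.34 for Homo_sapiens_newGene_2205, -0.37 for Homo_sapiens_newGene_8044 and -0.32 for Homo_sapiens_newGene_80. Over the fits with 1 library fewer, each lost its call without 4 or more other libraries too.

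**Figure D5:**
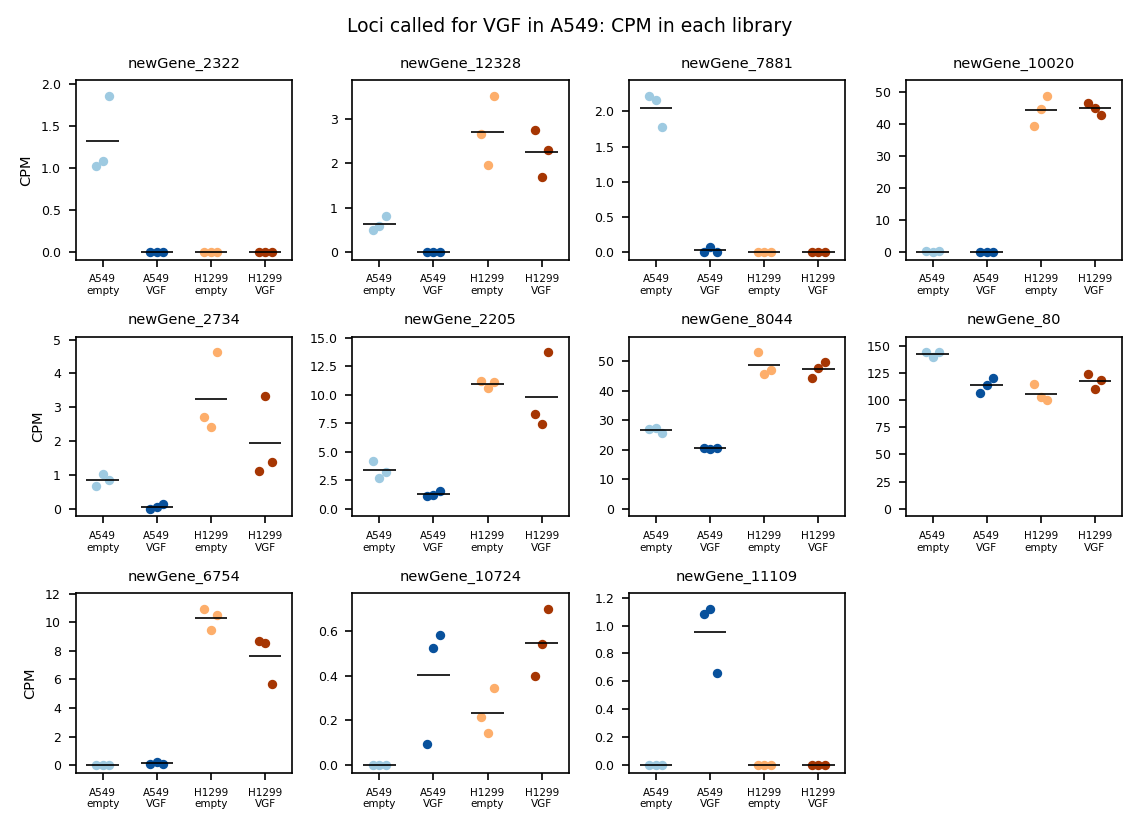
CPM in each library (points) and group mean (bars) of the 11 newly assembled loci called for VGF in A549, on linear axes that differ between panels. In A549 the empty-vector and VGF points do not overlap in any panel, a separation that the choice of called loci favours, and 3 loci (Homo_sapiens_newGene_2322, Homo_sapiens_newGene_7881 and Homo_sapiens_newGene_11109) are at 0 in all H1299 libraries.

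In H1299 no newly assembled locus passed the test for VGF. With edgeR 0 of 3363 were called, beside a background of 0.011% of all tested features, and the smallest adjusted p was 0.142. The unadjusted p was under 0.05 for 217 loci (6.453%), against 7.801% of all tested features. DESeq2 called 11 beside a background of 0.767%, and limma voom called 0 beside 0.00549%. Of the 11 loci called in A549, the 8 with counts in H1299 had adjusted p-values there from 0.604 upwards. Over the 2052 loci expressed in H1299 the median log2 fold change was -0.06, and 828 (40.35%) were positive, against -0.0017 and 49.45% for expressed Ensembl features. Without A549 VGF library 2 in the fit, 0 loci were called in H1299 with edgeR (background 0.0214%) and 199 had an unadjusted p under 0.05.

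The 2 effects of VGF were then compared in 1 test of their difference. It called 1 locus, Homo_sapiens_newGene_12328, which fell in A549 and was not called in H1299 (adjusted p = 0.0125, edgeR), beside a background of 0.159% of all tested features. The fitted difference, H1299 minus A549, was 7.43 on the log2 scale (SE 0.911), a value that depends on the prior count because 1 group has no count. The call was kept without A549 VGF library 2, where it was again the single locus called (background 0.193%). DESeq2 called 27 loci for this difference beside a background of 1.82%, and limma voom 0 beside 0.104%, while 250 loci had an unadjusted p under 0.05 with edgeR.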

How the data were processed

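The authors deposited raw counts per feature and, for the same features, FPKM values scaled by length and library size. Per the submitters' processing notes the build was GRCh38 and DESeq2 was named without a version. Aligner, assembler, counter and use of strand: not given in the sources used here. Overlap with known genes on either strand therefore cannot be judged. Each of the tables also held 18 stray lines of text, which were left out. Ensembl IDs were matched to GENCODE 29 for gene type and length, and all 19974 matched.

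The loci are the rows named Homo_sapiens_newGene_. CPM is the count scaled to 1000000 of the library total. All 26535 features entered 1 fit of 4 group means in edgeR 4.0.16 (R 4.3.3; TMM, filterByExpr, quasi-likelihood F test, Benjamini-Hochberg over 18228 features, called under 0.05), tested on simulated data. DESeq2 1.42.0, limma voom and limma on log2(FPKM + 0.1) or log2(FPKM + 1) (limma 3.58.1) were alternatives. The F statistic gave the standard errors. Shares were compared by exact permutation in Python 3.11.15 with numpy 2.4.6. P-values measure only the spread between these libraries. The precision is set by totals of 31378171 to 41919484 counts, at which 0.5 CPM is 15.7 to 21.0 counts.

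Named loci were up to 4 called rises and 4 falls per line at 0.5 CPM or more, up to 2 called for the difference of effects per sign, the 4 most abundant restricted loci and the 3 most abundant loci per line, the 2 largest line differences per sign among loci in both lines, and the 2 highest in A549 VGF library 2 alone. Members and lists were chosen with earlier results of these data known. Marker lists were endothelial, fibroblast, leukocyte and epithelial.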

Additional observations from a re-analysis of the deposited data

Results flagged for a closer look

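1 result was singled out because the effect of VGF differed between the lines by a test of the difference itself. Homo_sapiens_newGene_12328 went from 18, 21 and 29 counts to 0, 0 and 0 in A549 and from 110, 81 and 133 to 103, 63 and 92 in H1299. The fitted difference of the effects was 7.43 on the log2 scale (SE 0.911, adjusted p = 0.0125, edgeR), and its adjusted p ran from 0.0217 to 0.0478 over the 12 fits that left out 1 library. It was 0.000141 with DESeq2, and the call was lost with limma voom (0.0651) and with limma on log2 FPKM at pseudocounts of 0.1 (0.0696) and 1 (0.655). Single libraries were not tested as outliers within groups of 3, and the run of 5 loci in H1299 empty-vector library 3 is given as values in the report.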

How the results depend on the processing

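No direction reversed under the alternatives run. Counts of loci called between the lines, restricted to a line or expressed stayed within 1.5 times of the main count, except that at 0.1 CPM 3250 loci were expressed in A549 and 3311 in H1299. Loci found in A549 VGF library 2 alone numbered 82 at 5 counts and 8 at 20 counts, against 26. Calls for VGF in A549 numbered 50 with DESeq2, 24 with limma voom, 31 and 33 on log2 FPKM with pseudocounts 0.1 and 1, and 3 to 9 with 1 library left out, against 11. Calls for VGF in H1299 numbered 11 with DESeq2, 1 with the line fitted alone, 2 and 2 on log2 FPKM, and 0 to 1 with 1 library left out, against 0. Calls for the difference numbered 27 with DESeq2, 0 with limma voom, 2 without a filter, 4 and 2 on log2 FPKM, and 1 to 4 with 1 library left out, against 1. The cause was not tested. Line calls ranged from 2114 to 2282 with empty vector and 2102 to 2302 with VGF when 1 library was left out, and restricted loci from 199 to 208 in A549 and 315 to 325 in H1299. Deviations of same-numbered libraries correlated at -0.0097, -0.0398 and -0.0663 in A549 and -0.0203, -0.0059 and -0.0856 in H1299. Those of differently numbered libraries ran from -0.0261 to 0.0609 in A549 and from -0.1015 to 0.1086 in H1299. These values cannot show whether same-numbered libraries were handled together. With the replicate block 2 loci were called for VGF in A549, and the adjusted p of Homo_sapiens_newGene_12328 for the difference was 0.0639 (edgeR). The share without the run of 5 loci and the restricted loci without A549 VGF library 2 are alternatives chosen after seeing the data. Among named loci, the 26 called results kept their call in 463 of 578 alternatives and lost it, in the same direction, in 115; 1 named result was not called. Depth limits loci near 0.5 CPM.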
